A study of Mus musculus with 4 samples.

Results

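The mitosis and G2/M genes described here are 42 of the 32285 genes counted in single T cells from mouse melanoma. They were picked by symbol from textbook roles in entry into and passage through mitosis, with earlier results of these data known. Each symbol matched exactly 1 row of the count matrices, and all 42 were followed in every cell kind and in both genotypes, whatever their level. Cells were kept with at least 600 genes and under 30% mitochondrial UMIs (unique molecular identifiers, each standing for 1 counted mRNA molecule). CD8+ cells had at least 1 UMI of Cd8a or Cd8b1 and none of Cd4, conventional CD4+ cells had at least 1 UMI of Cd4 and none of Foxp3, and regulatory cells had at least 1 UMI each of Cd4 and Foxp3, the factor that defines regulatory T cells. Besides its level, each kind was described by the share of cells with 5 or more member UMIs after every cell had been thinned at random to 2000 UMIs, so that deep and shallow cells were read at equal depth.

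The study asked how VISTA, an inhibitory receptor encoded by Vsir, acts inside T cells. VISTA-KO mice were Vsir fl/fl with Cre under the Cd4 promoter, which deletes in T cells of both the CD4+ and the CD8+ lineage, and WT mice were Vsir fl/fl littermates, both on the C57BL/6 background. All carried B16bl6 melanoma, a poorly immunogenic skin tumor line, and all received a TRP2 peptide vaccine with CpG and R848 on day 3 and anti-CTLA-4 antibody on days 4 and 8, so there was no untreated group. The methods give an age of 6 to 8 weeks for tumor experiments, and the study's account of the single-cell experiment puts isolation on day 18 after treatment. CD4+ and CD8+ tumor-infiltrating lymphocytes of 5 to 6 pooled mice per genotype (6 to 8 tumors by another account of the same experiment) were sorted together and sequenced as 1 gene expression and 1 T cell receptor library per genotype. With 1 pooled library per genotype there was no replicate and no test, and all intervals below are 95% intervals that cover counting error only.

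A cell enters mitosis when the kinase Cdk1, bound to cyclins A and B and to the small Cks proteins, is switched on. Aurora and Polo-like kinases, the kinetochore and spindle motors then align and part the chromosomes, and the anaphase-promoting complex ends mitosis by marking cyclins for destruction. Resting lymphocytes hold little of this RNA and gain it in late S phase, G2 and mitosis, while in resting cells repressor complexes that bind the cell cycle homology region (CHR) of the promoter keep many of these genes off and the factor NF-Y binds nearby CCAAT boxes.

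The promoters of the members were read for those letters, which the choice of genes had not used. RefSeq promoters (mouse build GRCm38.p6, 250 bases before and 50 bases after the start of transcription) were held for 35 of the 42 members. The CHR letters, TTTGAA on either strand or TTTAAA (the same on both strands), occurred in 29 of the 35, against 30.6% of 27025 genes with a promoter in the table. CCAAT on either strand occurred in 26 of the 35 members, against 41.1% of all genes. Both sets of letters occurred together in 24 of the 35 members and in 12.2% of all genes. The stretches below run from 100 bases before to 30 bases from the start for Cdk1 and Ccnb2, a kinase and its cyclin, and for 4 members of other roles or letters that the results below name, and capitals mark the CHR letters and CCAAT on either strand (TTCAAA and ATTGG are the reverse strand). Their positions in GRCm38.p6, with strand, are Cdk1 chr10:69352883-69353012 (-), Ccnb2 chr9:70421525-70421654 (-), Cks2 chr13:51645132-51645261 (+), Ube2c chr2:164769829-164769958 (+), Cenpa chr5:30666786-30666915 (+), Hmgb2 chr8:57511743-57511872 (+).
Cdk1: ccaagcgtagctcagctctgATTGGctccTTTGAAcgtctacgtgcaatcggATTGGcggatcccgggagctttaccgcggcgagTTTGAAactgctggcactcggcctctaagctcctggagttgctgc
Ccnb2: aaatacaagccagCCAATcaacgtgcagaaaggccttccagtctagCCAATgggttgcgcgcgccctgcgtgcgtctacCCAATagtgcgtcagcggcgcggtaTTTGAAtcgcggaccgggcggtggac
Cks2: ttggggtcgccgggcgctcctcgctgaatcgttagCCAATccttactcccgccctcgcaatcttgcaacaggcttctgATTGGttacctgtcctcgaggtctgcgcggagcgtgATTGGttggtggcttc
Ube2c: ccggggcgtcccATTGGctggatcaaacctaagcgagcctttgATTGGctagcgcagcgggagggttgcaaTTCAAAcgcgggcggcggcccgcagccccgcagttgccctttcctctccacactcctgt
Cenpa: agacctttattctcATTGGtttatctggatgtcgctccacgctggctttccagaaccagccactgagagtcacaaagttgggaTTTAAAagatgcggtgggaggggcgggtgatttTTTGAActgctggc
Hmgb2: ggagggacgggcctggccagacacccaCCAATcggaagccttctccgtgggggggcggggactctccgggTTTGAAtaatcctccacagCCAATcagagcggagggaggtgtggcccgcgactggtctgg

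In the closest such pair of Cdk1 a CHR word follows a CCAAT box by 4 bases, and in those of Ccnb2 and Ube2c by 20 and 23 bases. Cdk1 also has a CHR word at -15 to -10 from the start, after a CCAAT box at -48 to -44. Cks2 is shown because it has 4 CCAAT boxes in the whole window and no CHR word. The 49 CHR words of the members lay at a median of 23 bases before the start, and 38 of them lay between 100 bases before and 50 bases after it. Cks2, Bub1, Nuf2, Knstrn, Tacc3 and Nusap1 had no CHR letters in this window. A match is a description of the letters and not a bound site.

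The libraries held 10337 barcodes in WT and 10085 in VISTA-KO, of which 10224 and 9946 passed the filters, and 145 barcodes occurred in both libraries. Median depth after filtering was 4723 UMIs in WT and 4670.5 in VISTA-KO. Vsir itself stood at 112 CPM (UMIs per 1000000 UMIs of the cell kind) in WT and 111 CPM in VISTA-KO CD8+ cells, which does not check the deletion, since reads at the 5′ end of a transcript need not cover the floxed exons. The CD4+ gates differed between the libraries before any result. Regulatory cells of WT had a median of 8838.5 UMIs against 5939 in VISTA-KO, 52.0% against 29.5% of them also held a Cd8a or Cd8b1 UMI, and 52.4% against 75.6% had a productive beta chain in the receptor library. Of conventional CD4+ cells, 32.7% in WT against 20.9% in VISTA-KO held a Cd8a or Cd8b1 UMI and 70.5% against 82.7% had a beta chain, at medians of 4105.5 and 4223.5 UMIs. The regulatory markers that the gate had not used, Il2ra and Ikzf2, summed to 565 CPM (WT) and 774 CPM (VISTA-KO) in regulatory cells, against 114 and 94.9 CPM in CD8+ cells. The CD8 markers Cd8a and Cd8b1 did not follow the gates as closely, with 2557 and 2433 CPM in CD8+ cells, 897 and 457 CPM in conventional CD4+ cells and 857 and 389 CPM in regulatory cells. The T cell markers summed to between 4182 and 4887 CPM in all 6 sets of cells. The 5 melanoma markers Pmel, Mlana, Dct, Tyrp1 and Tyr were uneven, at 10.5, 209 and 5.63 CPM in CD8+, conventional CD4+ and regulatory cells of WT and at 199.6, 15.9 and 194 CPM in those of VISTA-KO, with none of the 5 at 0 in any set. Macrophage markers ranged from 89.4 to 248 CPM and plasmacytoid dendritic markers from 335 to 997 CPM over the 6 sets. The 997 CPM was that of conventional CD4+ cells of WT, against 541 CPM in those of VISTA-KO. Cells with 10 or more melanoma marker UMIs were left out in one alternative, and the part of the other cells in the results was not tested.

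The members differed widely in how strictly they marked a dividing cell. Hmgb2, a chromatin protein that resting T cells also express, had a UMI in 62.1% of WT and 58.8% of VISTA-KO CD8+ cells at 2000 UMIs, and it alone gave 48.9% and 46.0% of the member UMIs of CD8+ cells with 0 to 4 of them. Smc4, a condensin subunit, and Tmpo, a protein of the nuclear envelope, were spread in the same way, with a UMI in 18.9% and 19.8% of WT CD8+ cells. Few member UMIs in a cell thus need not mark a dividing cell. For each member the share of its UMIs was therefore taken that lay in cells with 10 or more UMIs of the other 41 members. In WT CD8+ cells such cells were a median of 6.82% of the cells and held a median of 71.1% of a member's UMIs, and in VISTA-KO CD8+ cells 7.88% of the cells held 77.2%. At the strict end stood Hmmr, a spindle protein, with 94.9% and 93.8%, Kif2c, a microtubule-depolymerizing kinesin, with 93.5% and 92.6%, and Nuf2, a kinetochore subunit, with 90.2% and 92.2%. In WT these shares rest on 78 UMIs for Hmmr (87.4 to 98.6%), 31 for Kif2c (78.6 to 99.2%) and 41 for Nuf2 (76.9 to 97.3%). The highest share in VISTA-KO was that of Cdc25c at 95%, which stood at 69.2% of 26 UMIs in WT. At the broad end stood Smc4 with 18.2% and 23.4%, Hmgb2 with 22.5% and 32.2%, Tmpo with 23.1% and 30.8%, and Cks2 with 28.0% and 31.8%. Kif20b, a kinesin of cytokinesis, and Ndc80, a kinetochore subunit, lay nearer to these broad genes in WT, at 28.1% and 39.0%. In VISTA-KO they stood higher, Kif20b at 47.5% and Ndc80 at 56.8%. Mki67, the most used marker of cycling cells, lay between, at 68.5% and 76.8%.

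The cut of 5 summed UMIs accordingly took in cells of unlike content, described here in bands of 5 to 9 and of 10 or more. The line at 10 is a set count and was not shown to part dividing from other cells. CD8+ cells with 5 to 9 member UMIs showed a median of 4 different members in both libraries, and 69.1% (WT) and 68.4% (VISTA-KO) of their member UMIs came from Stmn1, Hmgb2, Tmpo, Smc4 and Cks1b, genes taken as also expressed in cells that do not divide. By the measured share above, Stmn1 (62.9% and 69.9%) and Cks1b (61.6% and 75.1%) lay near Mki67 and not at the broad end. CD8+ cells with 10 or more showed a median of 11 and 13 members, these 5 genes gave 40.1% and 39.6% of their member UMIs, and 270 of 360 and 257 of 329 of them also had 5 or more UMIs of a list of 46 S-phase genes. They were deeper too, with medians of 15191 and 13114 UMIs before thinning against 4826 and 5094 for cells with 0 to 4. Of the cells with 5 to 9, 32.1% (WT) and 38.6% (VISTA-KO) had 5 or more S-phase UMIs, against 11.4% and 10.6% of those with 0 to 4. In cells with 2 or more UMIs of Siglech, a plasmacytoid dendritic marker, and no Cd3 UMI, which should hold little of this RNA, 1 of 127 in WT and 0 of 95 in VISTA-KO (which allows up to 3.16% by a limit of 3 counts and up to 3.81% by the Clopper-Pearson interval) reached 5 UMIs, at median depths of 8309 and 8702 UMIs. In CD8+ cells with both Ccr7 and Lef1, markers of naive and memory cells, 11.8% (8.75 to 15.5%) and 8.74% (6.06 to 12.1%) did. The shares in CD8+ cells at large, 16.7% and 15.7%, thus lay above those of both sets. The conventional CD4+ shares given below, 12.5% and 10.4%, lay above those of the Siglech cells, whose upper limits were 4.31% (WT) and 3.81% (VISTA-KO). Their intervals overlapped those of the Ccr7 and Lef1 cells of their library, so they could not be told apart from these. The Siglech cells were deeper than both kinds. Median depths were 5004 (WT) and 5348.5 UMIs (VISTA-KO) in the thinned CD8+ cells, and 4105.5 and 4223.5 UMIs in conventional CD4+ cells. The part of depth in these comparisons was not tested. Siglech cells that passed the conventional CD4+ gate, which asks for no Cd3 UMI, were not taken out of it. Of the Ccr7 and Lef1 cells, 4.99% (WT) and 2.19% (VISTA-KO) had 10 or more member UMIs, so this set held member-rich cells of its own.

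By role, the cyclin and Cdk1 group held Cks2, a Cdk1-binding adaptor, at 113 CPM (WT) and 118 CPM (VISTA-KO) in CD8+ cells, 102 and 98.4 CPM in conventional CD4+ cells, and 128 and 96.2 CPM in regulatory cells. Cdk1 itself stood at 41.4 and 46.9, 28.3 and 20.6, and 46.7 and 22.8 CPM in the same order, and its phosphatase Cdc25c did not pass 6.17 CPM anywhere. Ube2c, the ubiquitin-conjugating enzyme of the anaphase-promoting complex, stood at 119 and 137 CPM in CD8+ cells, at 67.8 and 41.1 CPM in conventional CD4+ cells, and at 143 and 57.3 CPM in regulatory cells. In this gene the WT library ordered the kinds regulatory, CD8+, conventional CD4+, and in the VISTA-KO library CD8+ cells stood first.

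Birc5, the survivin of the chromosomal passenger complex, ran from 32.3 CPM in conventional CD4+ cells of VISTA-KO to 111 CPM in regulatory cells of WT. Cenpa, the histone variant that marks centromeres, ran from 71.3 to 182 CPM in the same sets. Stmn1, which destabilizes microtubules, ran from 114 to 260 CPM, the highest value here being that of VISTA-KO CD8+ cells. Hmgb2 ran from 647 to 915 CPM, again between conventional CD4+ and CD8+ cells of VISTA-KO. Kif2c, Anln and Aurka, a kinesin, a cytokinesis scaffold and the spindle-pole kinase, reached at most 12.9 CPM in any of the 6 sets.

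**Figure D1:**
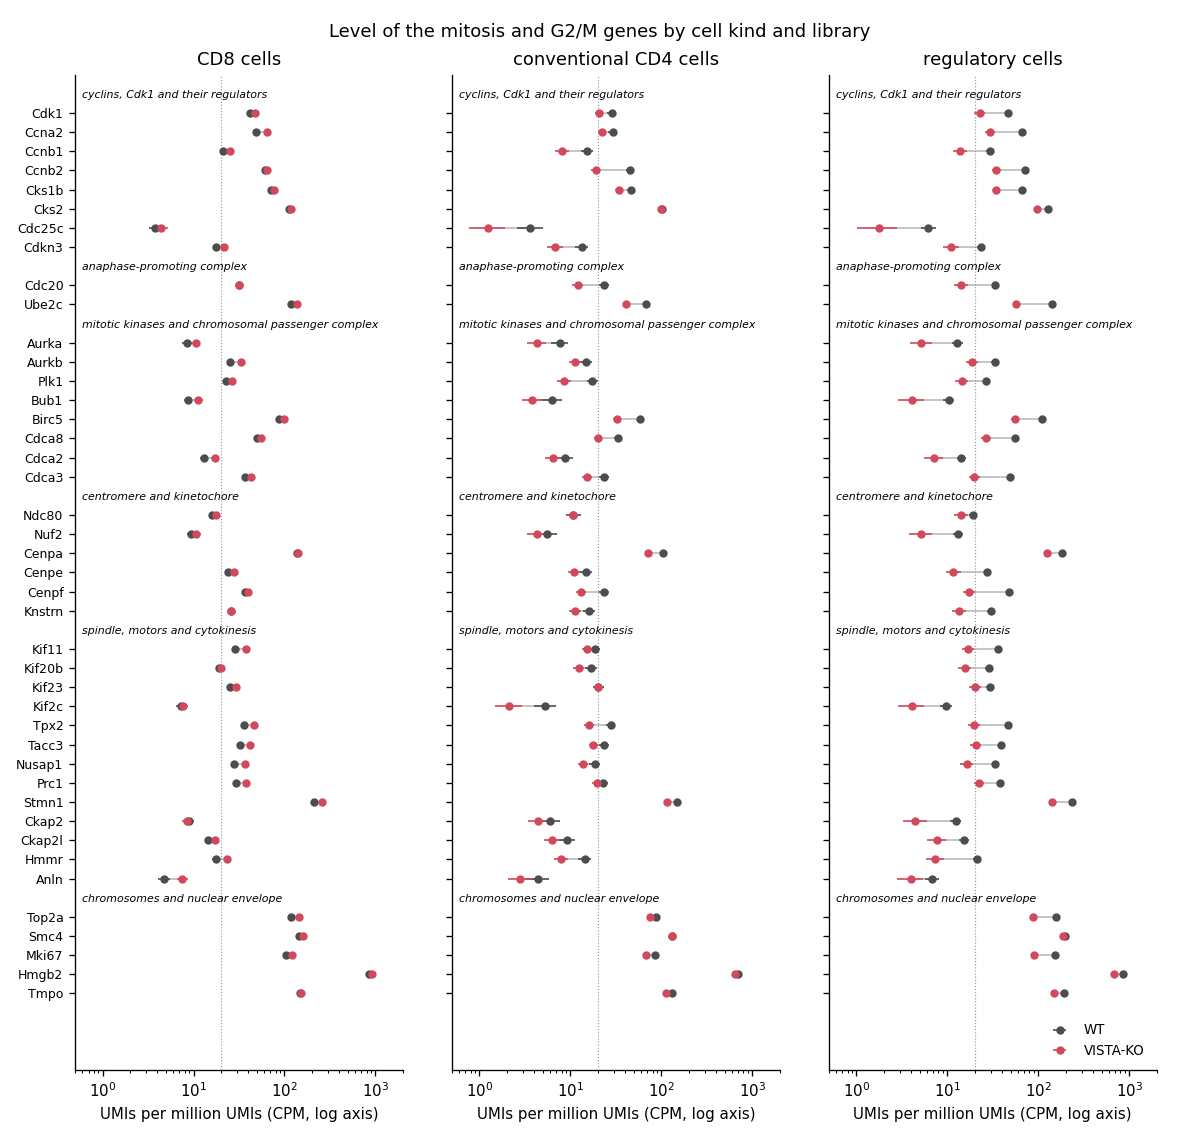
Level of each of the 42 members in CD8+, conventional CD4+ and regulatory cells. The x axis is CPM on a log scale, points are the WT and VISTA-KO libraries with 95% Poisson intervals, gray bars join the libraries, the dotted line is 20 CPM, and rows are grouped by role. In regulatory cells the VISTA-KO points lie to the left of the WT points for all 42 members, and in CD8+ cells to the right for 40 of 42.

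Between cell kinds, the order of the members' levels differed with the library. In WT, regulatory cells stood above CD8+ cells in 41 of 42 members, with a median log2 ratio of 0.26 against 0.03 over the 6142 genes that passed 20 CPM in both libraries. In VISTA-KO they stood above CD8+ cells in 1 of 42 members, with a median of -0.74 against 0.05. Conventional CD4+ cells stood below CD8+ cells in all 42 members in both libraries, with medians of -0.39 in WT and -0.99 in VISTA-KO against 0.04 in each over all genes. No member was at or past 2-fold in the same direction in both libraries, either for regulatory cells, where 2.23% of genes were higher and 0.798% lower, or for conventional CD4+ cells, where 0.931% were higher and 0.261% lower. The gates were read before thinning, and regulatory cells were the deeper kind. Their medians were 8838.5 UMIs (WT) and 5939 UMIs (VISTA-KO), against 4848 and 5224.5 UMIs in CD8+ cells. This comparison of kinds was made with the main gates only, and the part of depth and gates in it was not tested.

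Regulatory cells showed the widest distance between genotypes. The summed members stood at 3354 CPM in WT (3327 to 3380) against 2145 CPM in VISTA-KO (2115 to 2174), which gives a ratio of 0.639 (0.629 to 0.650). In pooled cells fewer dividing cells and less of this RNA per dividing cell cannot be told apart from such a level, so the cells were counted as well. At 5 or more summed UMIs, 313 of 1483 WT cells (21.1%, 19.1 to 23.3%) and 181 of 1219 VISTA-KO cells (14.8%, 12.9 to 17.0%) were found, a ratio of 0.704 (0.593 to 0.832). At 10 or more, where broad genes weigh less, they were 11.2% and 4.10%, a ratio of 0.366 (0.264 to 0.499). At 20 or more they were 5.46% and 2.13%, a ratio of 0.391 (0.244 to 0.606). The intervals of the libraries did not overlap at any of these counts, and the ratio was lower at 10 UMIs than at 5. The 166 WT and 50 VISTA-KO cells with 10 or more had means of 22.7 and 23.7 summed UMIs. These means cover only cells past that count, and the RNA per dividing cell was not tested.

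**Figure D2:**
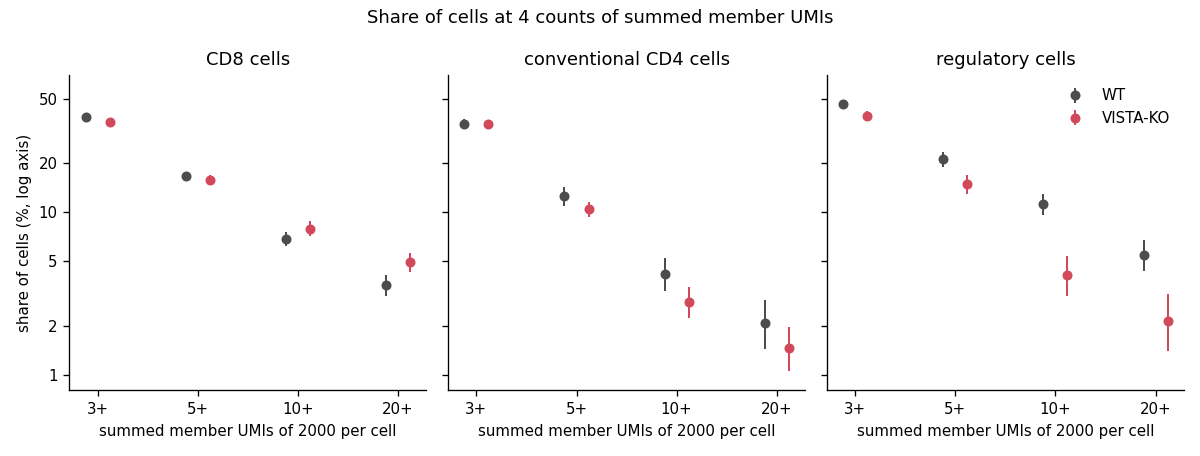
Share of cells with at least 3, 5, 10 or 20 summed member UMIs of 2000 per cell, in percent on a log axis, for each cell kind and library, with 95% binomial (Clopper-Pearson) intervals. In regulatory cells WT lies above VISTA-KO at every count, while in CD8+ cells the order turns from 16.7% against 15.7% at 5 to 3.54% against 4.90% at 20.

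All 42 members were lower in VISTA-KO regulatory cells, and 31 of the 32 members with 20 CPM or more in 1 library lay at or past the fold threshold, a difference of 0.32 on the scale of log2(CPM + 5), where 5.64% of the 6281 genes of that level were lower and 6.45% higher. Their median log2 ratio was -0.86, against -0.01 over those genes. On that scale the widest distance was that of Ube2c, 143 CPM (WT) and 57.3 CPM (VISTA-KO), a ratio of 0.401 (0.365 to 0.439). Cenpf, which links kinetochores to the spindle, stood at 47.2 and 17.5 CPM, a ratio of 0.370 (0.312 to 0.437). Cdca3, which triggers mitotic entry, stood at 48.5 and 19.9 CPM. Cells with 10 or more UMIs of the other members held 92.4% of the Cenpf UMIs and 71.6% of the Cdca3 UMIs in WT regulatory cells. The exception was Smc4 at 196 and 185 CPM, a ratio of 0.945 (0.892 to 1.00), and of the other broad genes Hmgb2, Tmpo and Cks2 were past the threshold by less than 0.1, with log2 ratios of -0.34, -0.37 and -0.40.

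Members past the threshold in regulatory and in conventional CD4+ cells alike were Cdk1, Ccna2, Ccnb2, Cks1b, Cdc20, Ube2c, Birc5, Cdca8, Cdca3, Cenpa, Cenpf, Tpx2, Tacc3 and Stmn1, each lower in VISTA-KO. Cks1b, an adaptor of Cdk1 like Cks2, stood at 67.2 and 34.4 CPM in regulatory cells of WT and VISTA-KO, and at 46.2 and 34.1 CPM in conventional CD4+ cells. Cdca8, the borealin of the passenger complex, stood at 55.0 and 26.5 CPM and at 33.7 and 20.2 CPM. Tpx2 stood at 46.3 and 19.6 CPM and at 27.6 and 15.9 CPM, and Tacc3, which stabilizes spindle fibers, at 39.4 and 20.5 CPM and at 23.6 and 17.8 CPM. In 12 of the 14 the ratio was lower in regulatory than in conventional CD4+ cells, the exceptions being Ccnb2 (0.482 and 0.422) and Cenpa (0.692 and 0.680), and the difference between kinds was not tested.

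By role in regulatory cells, the 2 genes of the anaphase-promoting complex summed to 176 CPM (WT) and 71.4 CPM (VISTA-KO), a ratio of 0.405 (0.373 to 0.440). Mitotic kinases and passenger proteins followed with 312 and 151 CPM, a ratio of 0.483 (0.456 to 0.512). Spindle and cytokinesis genes stood at 0.546 (0.524 to 0.569), cyclins and Cdk1 at 0.557 (0.531 to 0.583), and centromere genes at 0.588 (0.558 to 0.620). Chromosome and envelope genes, with Smc4, Hmgb2 and Tmpo among them, stood at 0.764 (0.747 to 0.781). Members with and without CHR letters did not stand apart, with median log2 ratios of -0.82 over 29 and -0.82 over 6.

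Depth and mixed markers moved with this result. WT regulatory cells with 5 or more member UMIs had a median of 17205 UMIs and 65.2% of them held a Cd8a or Cd8b1 UMI, against 7899 UMIs and 38.1% in VISTA-KO. Of those with 10 or more, 67.5% (WT) and 60% (VISTA-KO) held a Cd8a or Cd8b1 UMI. The doublet rule given under processing flagged 21.7% (WT) and 40% (VISTA-KO) of the cells with 10 or more. Part of that rule counts beta chains, which were found in 52.4% of WT and 75.6% of VISTA-KO regulatory cells. The flagged shares therefore cannot be compared between libraries, and the flagged cells were not shown to be doublets. Without cells that held any Cd8a or Cd8b1 UMI, the summed level was 3139 CPM (WT) and 1655 CPM (VISTA-KO), 30 of 31 members were still lower by the threshold or more, and the shares at 5 or more UMIs were 15.6% and 13.2%, a ratio of 0.843 (0.656 to 1.08). Without cells above 15000 UMIs, the levels were 1785 and 1483 CPM, 7 of 15 members lay past the threshold, and the shares were 12.4% and 11.7%. The median depth of WT cells with 5 or more member UMIs lay above that limit, and that of VISTA-KO below it. For cells with 10 or more, both medians lay above it, at 21435.5 UMIs (WT) and 17048.5 UMIs (VISTA-KO). The limit thus took out member-rich cells of both libraries, unequally among those with 5 or more. The part of depth itself was not tested. With the gates read on thinned UMIs the levels were 2149 and 1480 CPM, and 18 of 22 members lay past the threshold. The direction was thus lower in VISTA-KO under each of these readings, by an amount that depended on them, and the interval of the share ratio at 5 UMIs included 1 in all 3. The melanoma markers stood at 5.58 CPM in the WT cells with 5 or more member UMIs and at 146 CPM in those of VISTA-KO, and without the cells rich in them the log2 ratio of the summed level was -0.65, as with them. The macrophage and monocyte markers stood at 241 CPM (WT) and 32.0 CPM (VISTA-KO) in the cells with 5 or more member UMIs and at 126 and 106 CPM in those with 0 to 4, and their part in the result was not tested.

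In conventional CD4+ cells the members were lower in VISTA-KO as well, but the direction of the summed level depended on the deepest cells. The summed level was 2187 CPM in WT (2159 to 2215) against 1774 CPM in VISTA-KO (1753 to 1794), which gives a ratio of 0.811 (0.797 to 0.825). At 5 or more summed UMIs, 205 of 1634 WT cells (12.5%, 10.98 to 14.3%) and 301 of 2890 VISTA-KO cells (10.4%, 9.32 to 11.6%) were found, a ratio of 0.830 (0.701 to 0.9848). Of the 22 members with 20 CPM or more, 14 were lower by the threshold or more and 0 higher, where 5.63% of the 6336 genes of that level were lower and 3.68% higher. The median log2 ratio of the 22 was -0.37, against -0.04 over those genes, and 41 of 42 members were below 0, the exception being Ndc80 at 10.8 CPM in both libraries.

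Among the members with 20 CPM or more in 1 library, Ccnb2, a B-type cyclin, showed the widest distance in conventional CD4+ cells. It stood at 45.3 CPM (WT) and 19.1 CPM (VISTA-KO), a ratio of 0.422 (0.364 to 0.487). Birc5 stood at 58.3 and 32.3 CPM, a ratio of 0.554 (0.492 to 0.624), and Cdc20, the activator of the anaphase-promoting complex, at 23.5 and 12.0 CPM, a ratio of 0.509 (0.420 to 0.617). Cks2, Kif23, Prc1, Top2a, Smc4, Mki67, Hmgb2 and Tmpo lay within the threshold. Kif23 and Prc1 act in cytokinesis, and Smc4, Hmgb2, Tmpo and Cks2 are the broad genes above.

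The melanoma markers stood at 970 CPM in WT conventional CD4+ cells with 5 or more member UMIs and at 3.87 CPM in those with 0 to 4, against 2.02 and 18.6 CPM in VISTA-KO. The macrophage and monocyte markers stood at 313 and 236 CPM in WT and at 145 and 229 CPM in VISTA-KO in the same order. The plasmacytoid dendritic markers stood at 242 and 1224 CPM in WT and at 279 and 595 CPM in VISTA-KO, again in that order. They were thus higher in the cells with few member UMIs, more so in WT, and their part in the result was not tested. Without the cells with 10 or more melanoma marker UMIs, of which 1 in WT and 2 in VISTA-KO were among those thinned, the log2 ratio of the summed level moved from -0.30 to -0.26 and the members past the threshold from 14 to 8. Without cells above 15000 UMIs the direction of the summed level turned, with 1297 CPM (WT) and 1409 CPM (VISTA-KO), and 2 members were higher and 0 lower. The share of cells with 5 or more UMIs did not turn, at 9.74% in WT and 9.33% in VISTA-KO. That limit took out cells with 10 or more member UMIs unequally, since their median depths were 16959.5 UMIs (WT) and 11971 UMIs (VISTA-KO). For cells with 5 or more, both medians lay below the limit, at 6896 UMIs (WT) and 5246 UMIs (VISTA-KO). Without cells that held a Cd8a or Cd8b1 UMI the levels were 1500 and 1441 CPM, with 1 member higher and 2 lower.

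In CD8+ cells the members stood slightly higher in VISTA-KO, and the distance lay in the cells richest in them. The summed level was 2863 CPM in WT (2846 to 2880) against 3216 CPM in VISTA-KO (3195 to 3237), which gives a ratio of 1.12 (1.11 to 1.13). At 5 or more summed UMIs, 877 of 5259 WT cells (16.7%, 15.7 to 17.7%) and 653 of 4164 VISTA-KO cells (15.7%, 14.6 to 16.8%) were found, a ratio of 0.940 (0.856 to 1.03) whose interval included 1, and another random draw of the 2000 UMIs gave 1.01. At 3 or more the share was lower in VISTA-KO, with 38.6% in WT and 35.8%, a ratio of 0.927 (0.879 to 0.978). At 10 or more the shares were 6.85% and 7.90%, a ratio of 1.15 (0.997 to 1.34), and at 20 or more 3.54% and 4.90%, a ratio of 1.39 (1.14 to 1.69). The direction of the share thus depended on the count required. With the 37 members left without Stmn1, Hmgb2, Tmpo, Smc4 and Cks1b, 5 or more UMIs were found in 6.50% and 7.59%, a ratio of 1.17 (1.00 to 1.36).

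Of the 31 members with 20 CPM or more in CD8+ cells, 6 were higher by the threshold or more and 0 lower, where 2.58% of the 6083 genes of that level were higher and 1.64% lower. Their median log2 ratio was 0.19, against -0.02 over those genes, and 40 of 42 members were above 0. The 6 were Ccna2, the cyclin of S phase and G2, the mitotic kinase Aurkb, the spindle motor Kif11, the spindle assembly factor Tpx2, the microtubule bundler Nusap1, and Hmmr. Ccna2 stood at 48.7 CPM (WT) and 64.6 CPM (VISTA-KO), a ratio of 1.33 (1.24 to 1.42). Kif11 stood at 28.2 and 37.9 CPM, a ratio of 1.34 (1.23 to 1.47), and Hmmr at 17.4 and 23.5 CPM, a ratio of 1.35 (1.21 to 1.503). Lowest of the 31 were Cdc20 at 31.9 and 31.7 CPM, Knstrn, a kinetochore protein, at 25.7 and 25.9 CPM, and Cenpa at 138 and 142 CPM. Spindle and cytokinesis genes as a role had the highest ratio, at 459 and 572 CPM (log2 ratio 0.32), and centromere genes the lowest, at 251 and 263 CPM (log2 ratio 0.07).

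These calls depended on the cells read. Of the 6, 2 were still past the threshold without doublets, 2 without the cells with 10 or more melanoma marker UMIs, and 0 with the gates read on thinned UMIs. The melanoma markers stood at 32.9 CPM (WT) and 481 CPM (VISTA-KO) in CD8+ cells with 5 or more member UMIs, and at 1.70 and 98.0 CPM in those with 0 to 4.

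**Figure D3:**
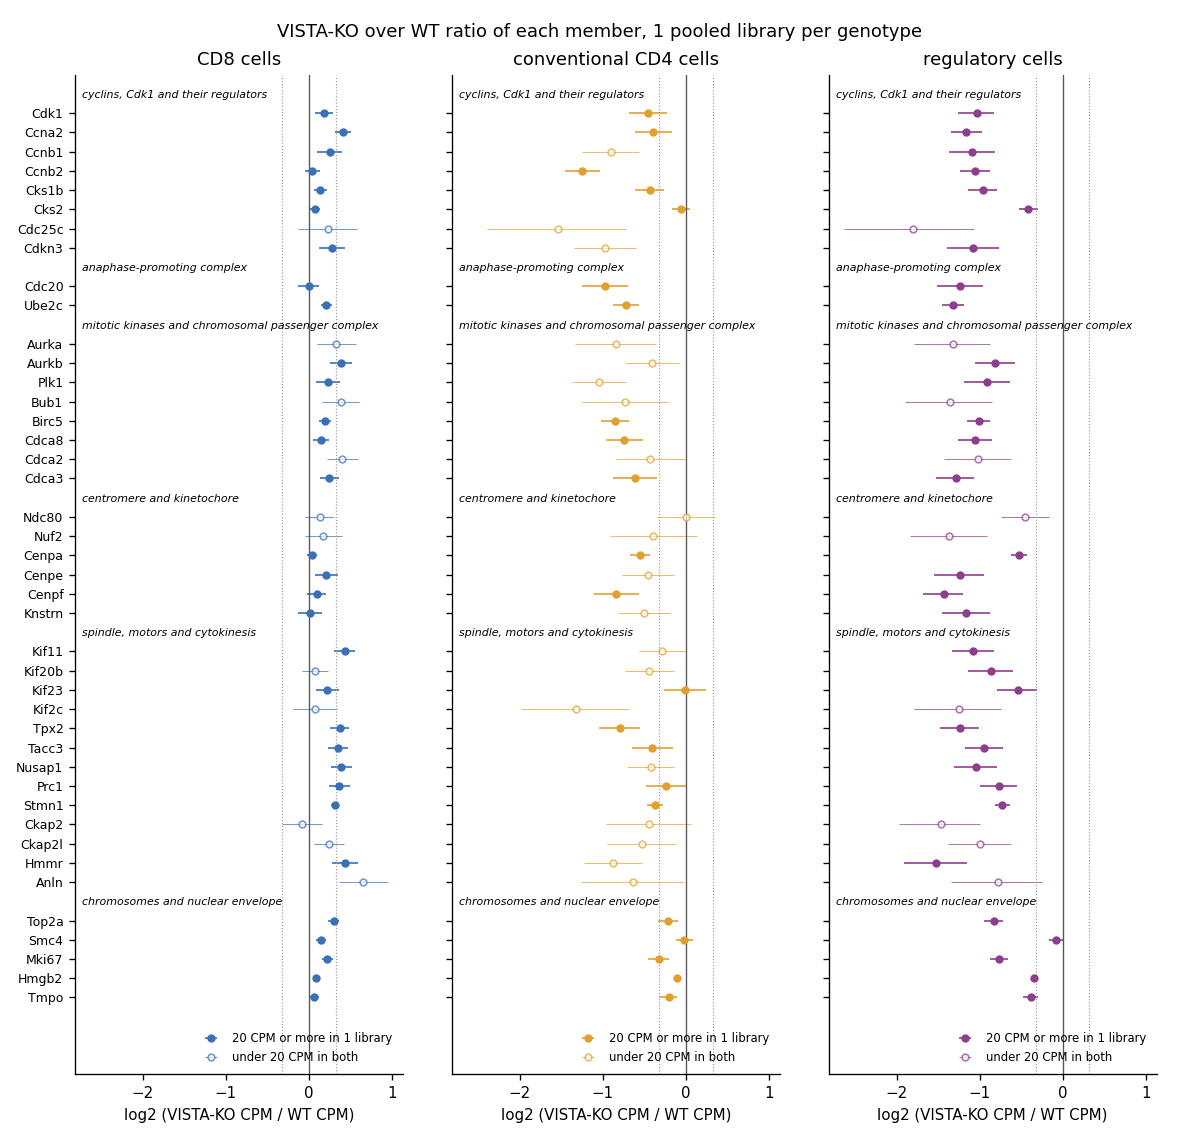
Ratio of VISTA-KO over WT for each member in the 3 cell kinds. The x axis is the log2 ratio of CPM without a pseudocount, bars are 95% intervals from counting error, open points are members under 20 CPM in both libraries, and dotted lines mark a log2 ratio of 0.32 either way. All 42 points of regulatory cells lie left of 0, and in CD8+ cells all but Cdc20 and Ckap2 lie right of 0.

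The higher level in CD8+ cells depended on the largest clonotypes of both libraries. Cells with the same V gene and junction in their most abundant productive alpha and beta chains were taken as a clonotype, and the largest of VISTA-KO had 291 CD8+ cells and 7.97% of the CD8+ UMIs. In it the members summed to 6232 CPM (6130 to 6336), and 57 of 288 cells (19.8%, 15.3 to 24.9%) had 10 or more member UMIs. The largest clonotype of WT, with 1034 cells, stood at 1770 CPM (1734 to 1808), with 23 of 987 cells (2.33%, 1.48 to 3.48%) at 10 or more. All other CD8+ cells stood at 3031 CPM in WT (3012 to 3050) against 2955 CPM in VISTA-KO (2934 to 2975). Without both clonotypes the log2 ratio was therefore -0.037 in place of 0.17, no member lay at or past the threshold, and 14.8% of VISTA-KO against 17.5% of WT cells had 5 or more UMIs, a ratio of 0.848 (0.766 to 0.938). Leaving out the clonotype of VISTA-KO alone gave a log2 ratio of 0.046, and that of WT alone 0.085, with 0 members past the threshold in each. The second largest clonotypes stood at 2744 CPM (WT) and 5414 CPM (VISTA-KO).

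**Figure D4:**
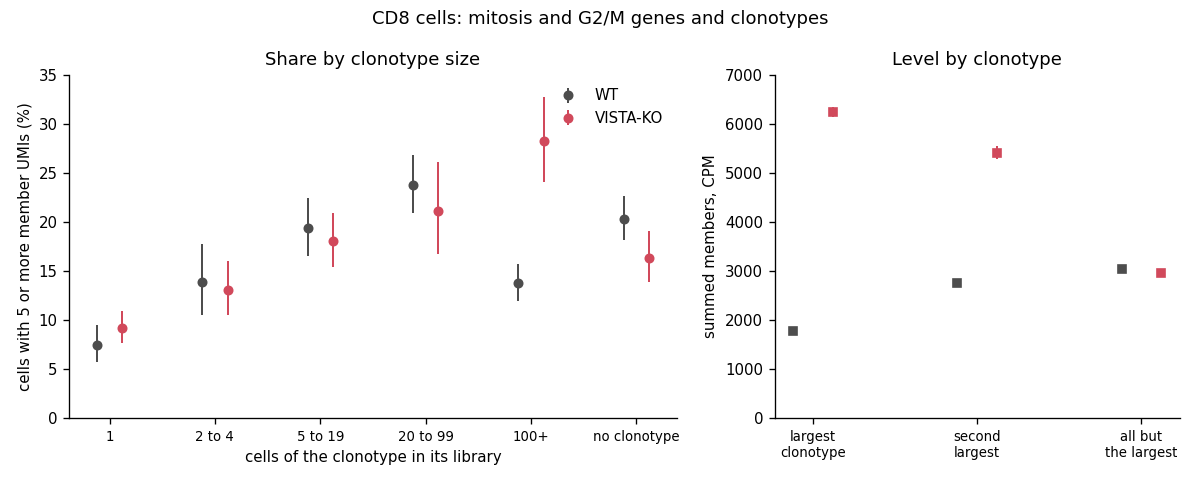
Members and clonotypes in CD8+ cells. Left, the share of cells (percent) with 5 or more summed member UMIs of 2000 by the number of cells of their clonotype in the library, with 95% Clopper-Pearson intervals, and right, the summed member level in CPM in the largest and second largest clonotype and in all CD8+ cells but the largest, with 95% Poisson intervals. Shares are higher in larger clonotypes up to 99 cells in both libraries, and at 100 or more cells they are 13.7% in WT and 28.3% in VISTA-KO.

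Up to 99 cells, a larger clonotype went with a larger share of cells rich in members in both libraries. In WT, 7.44% (5.73 to 9.48%) of CD8+ cells alone in their clonotype had 5 or more member UMIs, and 13.8%, 19.4% and 23.8% (20.9 to 26.9%) of those in clonotypes of 2 to 4, 5 to 19 and 20 to 99 cells. In VISTA-KO the shares were 9.19% (7.63 to 10.95%), 13.1%, 18.01% and 21.2% (16.8 to 26.1%). The libraries overlapped in each of these bands. Above 99 cells they stood apart, with 13.7% (11.9 to 15.7%) in 2 clonotypes of WT and 28.3% (24.1 to 32.8%) in 2 clonotypes of VISTA-KO. Cells with no assigned clonotype, at 20.3% and 16.3%, were deeper in WT, with medians of 7379 and 5397 UMIs.

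Within CD8+ cells the shares differed by markers of exhaustion and memory. Cells with a UMI of Havcr2, which encodes TIM-3, had 5 or more member UMIs in 25.7% of WT cells (21.2 to 30.7%) and 24.5% of VISTA-KO cells (20.4 to 29.0%). Cells with Pdcd1, which encodes PD-1, and neither Tcf7 nor Havcr2 had 21.5% and 20.8%. Cells with Tcf7, the factor of naive, memory and progenitor cells, and no Pdcd1 had 9.71% (7.89 to 11.8%) and 7.37% (5.60 to 9.49%), and those with both Tcf7 and Pdcd1 had 12.5% (8.91 to 16.9%) and 6.57% (3.05 to 12.1%). Cells with no UMI of these 3 genes were the largest set, with 2044 cells in WT and 1778 in VISTA-KO. Their shares were 15.0% (13.5 to 16.6%) and 14.7% (13.1 to 16.4%). In each library the Havcr2 and Pdcd1 shares lay above the Tcf7 shares without overlap of their intervals, and the libraries overlapped in every set. Cells with Havcr2 were deeper before thinning, with medians of 7422 and 7078 UMIs against 4413 and 4759.5 for Tcf7 without Pdcd1, and the part of depth in their markers was not tested.

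The members also split by whether S-phase RNA was present. CD8+ cells with 10 or more member UMIs were divided into those with 5 or more UMIs of the S-phase list (270 in WT, 257 in VISTA-KO) and those with fewer (90 and 72). In both libraries 8 members were higher in cells with fewer S-phase UMIs with an interval that left out equality, namely Ccnb2, Cks1b, Cdkn3, Cdc20, Ube2c, Cenpa, Knstrn and Hmgb2. Cenpa had 2.30 UMIs per cell without against 0.859 with S-phase UMIs in WT and 2.26 against 0.899 in VISTA-KO. Cdc20 had 0.689 against 0.270 and 0.778 against 0.276. In the other direction lay 5 members, Aurkb, Kif11, Nusap1, Stmn1 and Top2a. Top2a, the topoisomerase that untangles sister chromosomes, had 0.578 UMIs without against 1.23 with S-phase UMIs in WT and 0.764 against 1.68 in VISTA-KO. Kif11 had 0.144 against 0.426 and 0.139 against 0.537. The other 29 members did not stand apart in both libraries. Members with 20 CPM or more in CD8+ cells were ranked by the difference between genotypes on the scale of log2(CPM + 5). Of the 3 highest, Kif11 is in the second set, while Ccna2 and Hmmr did not stand apart in both libraries. The 3 lowest, Cdc20, Knstrn and Cenpa, are all in the first set. A link between this split and the genotypes was not tested.

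The genes outside the list whose UMIs followed the summed members most closely over CD8+ cells, by the lower of the libraries' Pearson correlations of log2(UMI + 1) at 2000 UMIs among 8738 genes, were Pclaf, Hist1h1b, Hist1h2ae, Rrm2, Spc24, Tubb5, Tuba1b, Hmgn2, Tubb4b and Smc2. Pclaf, a clamp-associated factor of DNA replication, had r = 0.51 over 5259 WT cells and 0.55 over 4164 VISTA-KO cells. Hist1h1b, a linker histone, had 0.38 and 0.45, and Smc2, the condensin partner of Smc4, 0.32 and 0.41. These are descriptions over cells that share a library. Beside mitotic genes the set holds Pclaf, Hmgn2, histones, tubulins and Rrm2, which supplies nucleotides.

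In regulatory cells further G2/M and S-phase genes differed between genotypes in the same direction as the members, and G1 genes did not. Of 60 further G2/M and mitosis genes, 24 had 20 CPM or more there, and 15 were lower by the threshold or more and 0 higher, where 5.64% of all genes of that level were lower and 6.45% higher, with a median log2 ratio of -0.38. Knl1, the kinetochore scaffold, stood at 27.4 CPM (WT) and 10.2 CPM (VISTA-KO). Of 46 S-phase genes, 33 had that level, and 19 lay lower and 0 higher, with a median of -0.37, led by thymidine kinase Tk1 at 59.3 and 36.1 CPM. Of 24 G1 cyclins, inhibitors and E2F genes, 15 had that level, and 0 lay lower and 3 higher. These 3 were the G1 cyclin Ccnd2 at 211 and 266 CPM and the inhibitors Cdkn1a, at 45.4 and 68.3 CPM, and Cdkn1b, at 164 and 217 CPM. The median of the G1 list was -0.02, near that of all genes, and its summed level gave a ratio of 1.07 (1.05 to 1.09). These lists were not read again with other gates or without cells above 15000 UMIs, settings that moved the members' values.

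In CD8+ cells, where 2.58% of all genes of that level were higher and 1.64% lower, 0 of 24 further G2/M genes lay past the threshold in either direction, and the S-phase list had 1 of 34, Rrm2, a subunit of ribonucleotide reductase, at 69.4 and 91.0 CPM. The G1 list had 1 of 14, the inhibitor Cdkn2a, at 18.5 and 24.5 CPM, and counts of 1 gene are not read as a result about a list. In conventional CD4+ cells, where 3.68% of all genes were higher and 5.63% lower, the counts were 1 higher and 2 lower of 18 further G2/M genes, 0 and 6 of 28 S-phase genes, and 1 and 2 of 14 G1 genes. Cdkn1a was the higher one of the G1 list there too, at 44.0 CPM (WT) and 75.4 CPM (VISTA-KO).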

How the data were processed

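The authors deposited UMI counts per gene and cell and productive T cell receptor sequences for 1 pooled library per genotype. The submitters' processing notes name Cell Ranger, Seurat 4 and the builds GRCm38 and mm10. Counts were read as deposited with Python 3.11.15, numpy 2.4.6, scipy 1.17.1 and pandas 2.3.3. The members and all gene lists were chosen with earlier results of these data known. Cells with under 600 genes or 30% or more mitochondrial UMIs were left out, which kept 72016854 UMIs in WT and 59817786 in VISTA-KO. UMIs were summed per cell kind and given as CPM. Level intervals are exact Poisson, share intervals Clopper-Pearson and ratio intervals conditional binomial (levels) or built from both shares' intervals. Cells under 2000 UMIs (643 and 538) were left out of shares. Genes with 20 CPM or more in 1 library were called where log2(CPM + 5) differed by 0.32 or more, without a test. The fold and thinning steps were tested on simulated data. Members given in most detail were those past this threshold in the same direction in 2 or more of the 3 kinds, the 3 highest and 3 lowest ratios in CD8+ cells and the member with most UMIs of each role; others that the text names were chosen after their values were seen. Scanpy 1.11.5 Scrublet called 1 doublet in WT and 0 in VISTA-KO and had thus not worked. In one alternative, cells above percentile 92 of its score or with 2 or more beta chains were therefore left out. These flagged cells are named doublets in the text and were not shown to be doublets.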

Additional observations from a re-analysis of the deposited data

Results flagged for a closer look

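In the summed level and in the share at 20 or more summed UMIs, CD8+ and regulatory cells lay on opposite sides of equality between VISTA-KO and WT. This drew attention to these values, and the difference between the kinds was not tested because each genotype had 1 library. The log2 ratio of the summed members was 0.17 in CD8+ cells and -0.65 in regulatory cells, but the CD8+ value was -0.037 once the largest clonotypes of both libraries were left out, on the same side as that of regulatory cells. The ratio of the shares of cells with 20 or more summed member UMIs, a count added after seeing the data, was 1.39 in CD8+ cells and 0.391 in regulatory cells. At the main count of 5 or more UMIs both kinds lay below 1, with 0.940 (0.856 to 1.03) in CD8+ cells and 0.704 in regulatory cells.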

How the results depend on the processing

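No paired analysis was possible because each genotype has 1 library, and for the same reason no replicate could be left out. Of 129 alternative values of the levels, member counts and shares, 75 moved by less than their counting interval or, for counts, less than 1.5 times, 52 moved by more and 2, both levels whose interval had left out equality, turned in direction. The share ratio in CD8+ cells, whose interval included 1, lay on the other side of 1 in 6 of its 19 alternatives. The settings with 37 members at 3 or more UMIs, 20 or more UMIs, no cells above 15000 UMIs, no cells with 10 or more melanoma marker UMIs, and 1 largest clonotype left out were added after seeing the data. The causes of the moves below were not tested.
In CD8+ cells the log2 ratio of the level (0.17) was 0.092 with gates read on thinned UMIs, 0.24 in cells with a beta chain, 0.13 without doublets, 0.25 without cells above 15000 UMIs and 0.15 as a mean of per-cell CPM. It was 0.046 without the largest clonotype of VISTA-KO, 0.085 without that of WT and -0.037 without both. The members past the fold (6) were 12 with a beta chain, 2 without doublets, 2 without melanoma-rich cells, and 0 with thinned gates and without either or both clonotypes. The share ratio (0.940) was 0.848 without both clonotypes, 1.16 at 1000 UMIs, 1.15 at 10 and 1.39 at 20 or more UMIs, and 1.17 and 1.07 at 5 and 3 UMIs of 37 members. The share ratio with another random draw was 1.01.
In conventional CD4+ cells the log2 ratio of the level (-0.30) was -0.44 with thinned gates, -0.058 with strict gates (no Cd8a or Cd8b1 UMI), -0.38 without doublets, -0.26 without melanoma-rich cells, -0.075 as a mean of per-cell CPM and 0.12 without cells above 15000 UMIs. The members past the fold (14 of 22, all lower) were 1 higher and 2 lower of 12 with strict gates, 2 of 8, both higher, without cells above 15000 UMIs, 8 lower of 21 without melanoma-rich cells, 1 lower of 9 by per-cell CPM and 26 lower of 42 with no filter on low values. Whatever their level there, 4, 1, 9 and 5 of the 14 were still lower by the threshold in the first 4 of these settings. The share ratio (0.830) was 0.991 at 3, 0.673 at 10 and 0.698 at 20 or more UMIs. Single members turned to a log2 ratio of 0.018 for Tacc3 and 0.27 for Stmn1 with strict gates, and to 0.013 for Ccna2, 0.12 for Tacc3 and 0.025 for Stmn1 by per-cell CPM. Without cells above 15000 UMIs, Cdk1 was at 0.048, Ccna2 0.50, Cks1b 0.22, Ube2c 0.016, Birc5 0.087, Cdca3 0.31, Cenpf 0.13, Tpx2 0.16, Tacc3 0.27 and Stmn1 0.51.
In regulatory cells the log2 ratio of the level (-0.65) was -0.54 with thinned gates, -0.92 with strict gates, -0.82 without doublets, -0.27 without cells above 15000 UMIs, -0.52 by per-cell CPM and -0.68 without ribosomal and mitochondrial genes in the total. The members past the fold (31 of 32) were 18 of 22 with thinned gates, 7 of 15 without cells above 15000 UMIs and 20 of 23 by per-cell CPM, with fewer members at 20 CPM in each. Whatever their level there, 28, 19 and 29 of the 31 were still lower by the threshold. The share ratio (0.704) was 0.854 with thinned gates, 0.843 with strict gates, 0.944 without cells above 15000 UMIs, 0.492 at 1000 and 0.893 at 4000 UMIs, 0.851 at 3, 0.366 at 10 and 0.391 at 20 or more UMIs, and 0.406 and 0.572 at 5 and 3 UMIs of 37 members.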
